A study of Mus musculus with 15 samples.

Results

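Reelin, its 2 lipoprotein receptors, the adaptor that both receptors use and one marker of layer 1 interneurons were followed through the cell types of the mouse prefrontal cortex. The 5 genes were taken by symbol from a table of 26145 genes. Reln (ENSMUSG00000042453, NCBIM37 chr5:21390272-21850523, minus strand) encodes the secreted ligand. Vldlr (ENSMUSG00000024924, chr19:27290974-27328721, plus strand) and Lrp8 (ENSMUSG00000028613, chr4:107474866-107549445, plus strand, also called ApoER2) encode its receptors. Dab1 (ENSMUSG00000028519, chr4:103291964-104417449, plus strand) encodes the intracellular adaptor. Ndnf (ENSMUSG00000049001, chr6:65621584-65656924, plus strand), listed in the files under its older symbol A930038C07Rik, encodes a secreted protein used as a marker of neurogliaform and layer 1 interneurons, and it is not itself a reelin receptor. No annotated exon of another gene overlapped the last 300 bases of any transcript of the 5 genes, which is where 3′ reads fall.

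Reelin is a large glycoprotein of the extracellular matrix. In the embryo it is secreted by Cajal-Retzius cells at the surface of the cortex, where it guides the placement of migrating neurons, and in the adult cortex it is made mainly by subsets of GABAergic interneurons. When it binds Vldlr or Lrp8, the receptors cluster and Src family kinases phosphorylate Dab1, which then passes the signal to Rap1, PI3 kinase and the cytoskeleton and is later degraded. In the adult brain Lrp8 is coupled to NMDA receptors and synaptic plasticity.

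The study profiled single cells of the prefrontal cortex of male C57BL/6N mice with 10x Genomics 3′ libraries. Of 15 libraries, 12 came from adults (P60, labelled 8 to 10 weeks old) that had self-administered either cocaine or saline intravenously, and 3 came from mice at postnatal day 21 (P21, 3 weeks old) that had received neither. The adults were taken at the end of maintenance, after 48 h of withdrawal or after 15 days of withdrawal, with 2 libraries for each treatment and period. The paper places catheter surgery at P60, so the adults were older than P60 when taken, most so after 15 days of withdrawal. Each adult library pooled 2 mice, so the spread between libraries is between pools and not between animals. The 3 P21 libraries were made from 4 mice, fewer than 3 separate pools of 2 would need, so they may share animals and their spread may be in part technical. The tissue field of the labels names the nucleus accumbens, whereas titles and sources name the prefrontal cortex, and the deposited cells carried 26 clusters of excitatory neurons. The P60 mice had been through self-administration and the P21 mice had not, so age and this handling cannot be told apart.

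After the authors' quality filters there were 24822 P60 and 10538 P21 cells, with 8375172 to 42892922 UMIs (unique molecular identifiers, each standing for 1 captured mRNA molecule) per library and a median of 3426 to 11334.5 UMIs per cell. Of 34602 distinct barcodes, 747 occurred in 2 or more libraries. Cells were placed in 8 classes from the authors' cluster names, and the summed levels of each class's own defining markers were highest in that class at P60. The authors' other annotation column named a different type for 33 of the 24822 P60 cells and for 459 of the 10538 P21 cells. Levels are UMIs of a gene per 1000000 UMIs (CPM) of all cells that a library held of the class or cluster, given where it held at least 10. 3′ UMIs carry no gene length, so levels are compared between cell types for 1 gene and never between genes.

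Reln was a gene of inhibitory neurons. In the 12 P60 libraries its level in inhibitory neurons was 81.6 CPM at the lowest, 147 at the median and 234 at the highest, with a mean of 153.5 ± 42.9 (SD, n = 12). In excitatory neurons the same libraries ran from 1.5 to 4.36 CPM, with a mean of 2.90 ± 0.83 (SD, n = 12). The inhibitory level was above the excitatory one in 12 of 12 libraries, and the mean in every other class was at most 1.97 CPM. Inhibitory neurons made up 4.80% of P60 cells and supplied 1378 of the 1965 Reln UMIs, or 70.1%. The far more numerous excitatory neurons supplied 27.8% of them. At P21, where inhibitory neurons were 9.13% of cells, they supplied 81.5% of the Reln UMIs and excitatory neurons 16.9%.

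Of P60 inhibitory neurons, 32.7% carried at least 1 Reln UMI at a median depth of 8038 UMIs per cell. In microglia, which should lack the transcript, the share was 0.207% at a median of 3213.5 UMIs. After every cell was thinned to 2000 UMIs, the inhibitory share was 16.9% at P60 and 23% at P21.

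Ndnf had a different distribution, with its highest level in the vasculature. In the endothelial class, which lines the blood vessels, the 12 P60 libraries ranged from 26.1 to 91.9 CPM with a median of 46.3 and a mean of 48.8 ± 20.3 (SD, n = 12). In inhibitory neurons Ndnf ranged from 7.08 to 28.1 CPM with a median of 19.3, below the endothelial level of the same library in 12 of 12 libraries. Every other class had a mean of at most 0.36 CPM. Endothelial cells supplied 722 of 939 Ndnf UMIs at P60, which is 76.9%, and the share at P21 was 76.8%. The endothelial class also held mural cells, which wrap the vessels. Cells with more endothelial than mural marker UMIs had 50.7 CPM of Ndnf at P60, and those with more mural marker UMIs had 5.52 CPM.

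The 2 receptors differed in where they were highest. Vldlr, which also takes up triglyceride-rich lipoproteins in other tissues, was highest in the oligodendrocyte lineage, with 153.5 ± 44.6 CPM (SD, n = 11) in newly formed oligodendrocytes and 101 ± 30.4 (SD, n = 11) in their precursors. Its mean was 92.9 ± 19.0 in inhibitory neurons, 86.4 ± 21.2 in mature oligodendrocytes and 45.5 ± 4.3 in excitatory neurons (SD, n = 12 each). Newly formed oligodendrocytes were above precursors in 10 of 11 libraries, but precursors were above inhibitory neurons in only 5 of 11, so these neighbours in the order were not separated. Inhibitory neurons were above mature oligodendrocytes in 8 of 12 libraries, and mature oligodendrocytes were above excitatory neurons in 11 of 12. Vldlr was lowest in the endothelial class, at 3.51 CPM.

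Lrp8 was instead highest in the endothelial class. The 12 P60 libraries ranged from 56.4 to 91.4 CPM there, with a median of 72.7 and a mean of 73.2 ± 11.5 (SD, n = 12), and all 12 were above the inhibitory neurons of the same library. Inhibitory neurons had 43.0 ± 17.8 CPM and excitatory neurons 28.9 ± 3.5 (SD, n = 12 each), and the first exceeded the second in 9 of 12 libraries. Lrp8 was nearly absent from mature oligodendrocytes, at 1.99 CPM, and from newly formed ones, at 0.59 CPM. The class with the highest Vldlr was thus near the floor for Lrp8, with 2 UMIs in 336 cells. Mature oligodendrocytes were above newly formed ones in 6 of 11 libraries, so these neighbours were not separated. Excitatory neurons, 14443 of the 24822 P60 cells, still supplied 80.0% of Vldlr UMIs and 75.4% of Lrp8 UMIs at P60.

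Dab1 was highest in astrocytes, with 128 to 179 CPM, a median of 164 and a mean of 159.7 ± 17.1 (SD, n = 11). Inhibitory neurons followed with 68.4 to 156 CPM and a mean of 122.5 ± 22.4 (SD, n = 12), below the astrocytes of the same library in 11 of 11 libraries. Oligodendrocyte precursors had 86.4 ± 35.2 CPM (n = 11) and excitatory neurons 61.6 ± 4.3 (n = 12), and the precursors were above excitatory neurons in 7 of 11 libraries, so those 2 were not separated. Mature oligodendrocytes had 23.6 ± 13.1 CPM and endothelial cells 4.31 CPM. The endothelial class combined the highest Lrp8 with the lowest Dab1 and Vldlr.

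**Figure D1:**
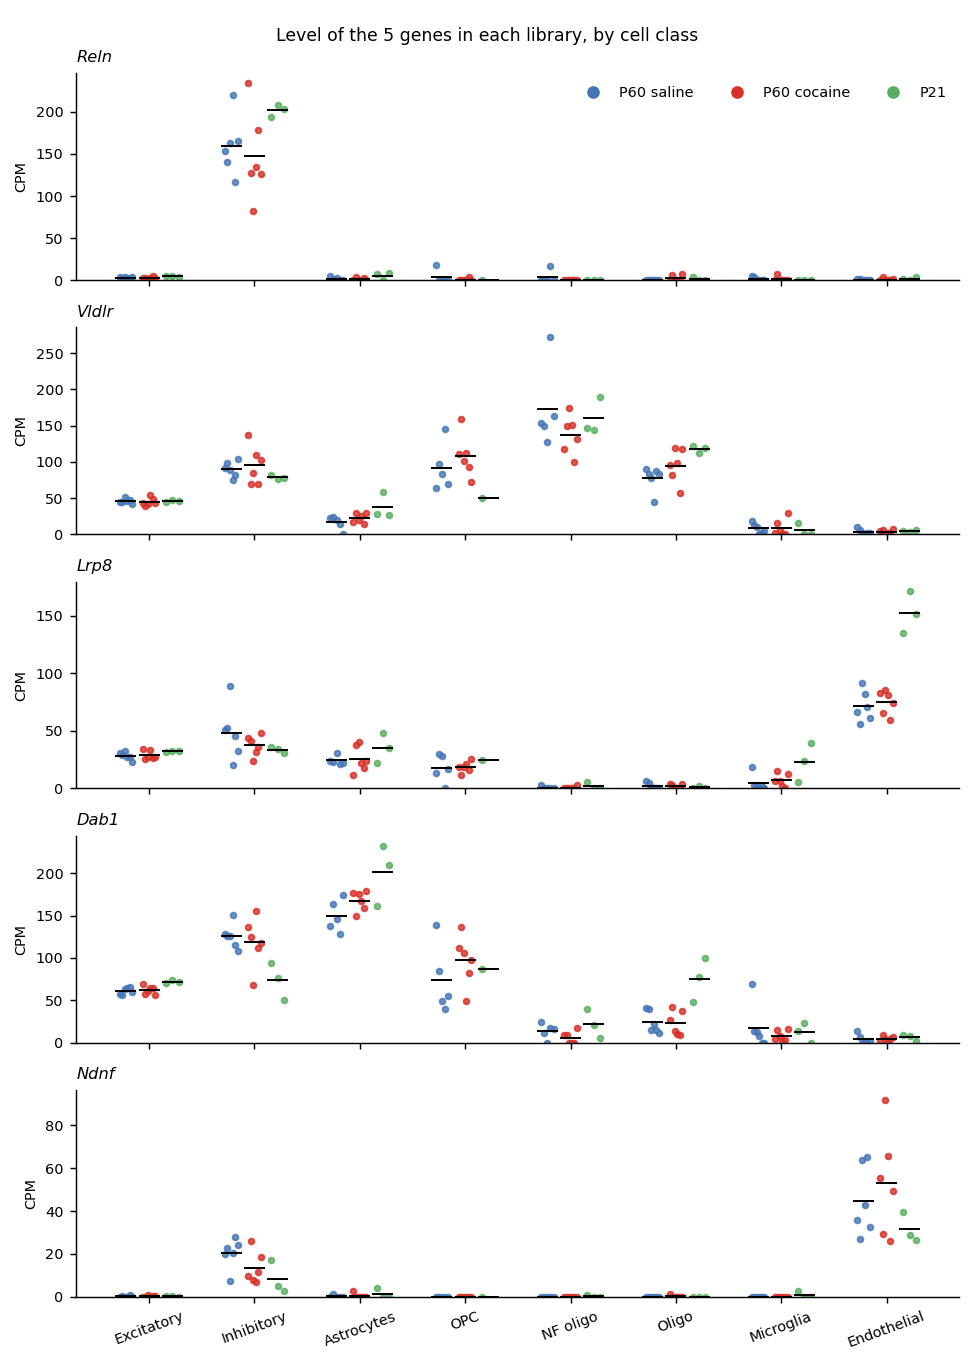
Levels of the 5 genes in 8 cell classes, in CPM on linear axes, with 1 point for each library that held at least 10 cells of the class (blue P60 saline, red P60 cocaine, green P21) and a bar at the mean of each group. Reln is set apart in inhibitory neurons, Ndnf and Lrp8 peak in the endothelial class, Vldlr in newly formed oligodendrocytes (NF oligo) and Dab1 in astrocytes, and only 1 P21 library has a point for oligodendrocyte precursors (OPC).

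Within the inhibitory neurons Reln was spread very unevenly over the 12 clusters, and the comparison between clusters is given as a description. Summed over the P60 libraries it was highest in Inhib_5, at 526 CPM (95% exact Poisson interval 461 to 596, counting error only). Inhib_2, led by the neuropeptide gene Sst at 22929 CPM, had 346 CPM. Inhib_10, with Vip at 6095 and Cck at 4955 CPM, had 277 CPM. These clusters were small, and the single cluster with the largest share of the transcript was Inhib_7, marked by Npy at 29572 CPM, with 477 of the 1378 inhibitory Reln UMIs (34.6%) at a level of 139 CPM (127 to 152).

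Clusters that shared a leading neuropeptide differed in Reln. Inhib_1 had more Sst than Inhib_2, at 40352 CPM, and also carried Npy at 21267 CPM, yet its Reln was 61.1 CPM. Inhib_4, with Vip at 19303 CPM, had 9.92 CPM. Inhib_6, with Pvalb at 1612 CPM, had 3.05 CPM from a single UMI. Across libraries with at least 10 cells of the cluster, Inhib_2 ranged from 299 to 438 CPM, with a mean of 357 ± 55.9 (SD, n = 6). Inhib_7 ranged from 52.9 to 239 CPM with a mean of 128 ± 59.9 (SD, n = 9), and no library of Inhib_7 reached the lowest library of Inhib_2.

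Ndnf in inhibitory neurons was confined to fewer clusters. It was at 72.0 CPM in Inhib_5, 37.6 in Inhib_7, 17.5 in Inhib_8, 11.1 in Inhib_3 and 2.88 in Inhib_2 at P60. Inhib_9 held a single Ndnf UMI and the other 6 clusters none, where a count of 0 allows a pooled level of up to 6.11 to 9.16 CPM. Of the 103 P60 inhibitory neurons with an Ndnf UMI, 88.3% also had a Reln UMI, and at P21 it was 27 of 31, or 87.1%. Of cells with at least 5 Sst UMIs, 105 of 171 (61.4%) had a Reln UMI at P60 and 61.8% at P21. Of cells with at least 5 Pvalb UMIs, 1 of 41 (2.44%) did at P60 and 21.7% at P21. Transcripts of one cell share its depth, so these overlaps describe the cells and were not tested.

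The Cajal-Retzius cells that make reelin in the embryo were looked for by their markers. No UMI of Trp73, one of their defining genes, was found in inhibitory neurons at either age, and 0 of 1191 inhibitory neurons at P60 and 0 of 962 at P21 had UMIs of 2 of 5 such markers. In excitatory neurons Trp73 had 63 UMIs at P60 and 11 at P21, and 5 cells at P60 and 1 at P21 had 2 of the markers. That P21 cell also had at least 5 Reln UMIs, and none of the P60 cells did. These markers are low, so the counts do not set a limit on the share of such cells.

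The adaptor and the receptors followed another order among the inhibitory clusters. Dab1 was at 179 CPM in Inhib_5, 165 in Inhib_12, 159 in Inhib_7 and 154 in Inhib_8, but only at 25.9 in Inhib_2 and 5.56 in Inhib_1, the clusters led by Sst. Inhib_2 thus combined high Reln with low Dab1, and Inhib_5 was high in both. Inhib_7 had high Dab1, but its Reln was near the level of the class. It held 34.6% of the inhibitory Reln UMIs in 32.9% of the inhibitory neurons at P60. At P21 the same pair of Sst clusters was again low in Dab1, at 26.5 CPM in Inhib_2 and 21.4 in Inhib_1, against 251 in Inhib_7. Vldlr ranged less, from 41.7 CPM in Inhib_1 to 113 in Inhib_7, and Lrp8 from 18.3 in Inhib_6 to 54.8 in Inhib_8.

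**Figure D2:**
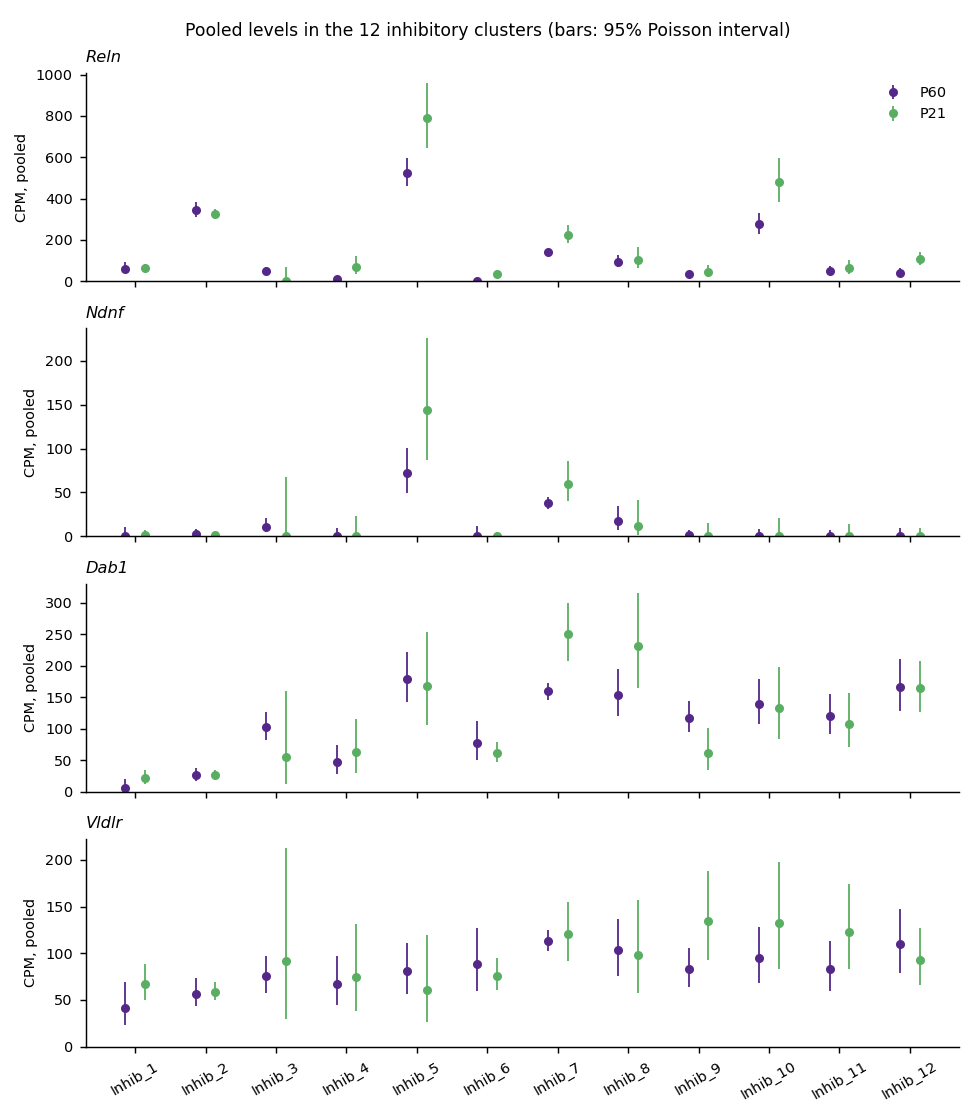
Levels of Reln, Ndnf, Dab1 and Vldlr in the 12 inhibitory clusters, in CPM over the pooled cells of P60 (purple) or P21 (green), with exact Poisson 95% intervals for counting error. Reln is highest in Inhib_5, Inhib_2 and Inhib_10 at both ages, Ndnf at P60 is nearly limited to Inhib_5, Inhib_7, Inhib_8 and Inhib_3, and Dab1 is low in the Sst clusters Inhib_1 and Inhib_2.

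Among the 26 excitatory clusters, Reln was concentrated in Exc_26, a cluster with the layer 5 genes Etv1 at 188 CPM and Pou3f1 at 98.2 CPM. The 8 P60 libraries with at least 10 of its cells had 27.1, 14.1, 38.3, 41.5, 47.3, 76.5, 73.1 and 28.5 CPM of Reln, with a mean of 43.3 ± 21.9 (SD, n = 8). The next clusters were Exc_1 at 16.4 ± 5.3 and Exc_9 at 9.94 ± 6.6 CPM, and Exc_26 was above Exc_1 in 7 of 8 libraries. The P21 libraries of Exc_26 had 52.9, 59.6 and 57.5 CPM. This cluster held 30.8% of all excitatory Reln UMIs at P60 and 43.7% at P21. Over the pooled P60 cells of the cluster Reln was at 46.7 CPM, and at 46.8 CPM when cells with any Gad1 or Gad2 UMI were left out.

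The receptors and the adaptor were graded over the excitatory clusters. The clusters were set in groups by 2 layer markers after their values had been seen, so the grouping is a description. In the 9 clusters with more than 100 CPM of Calb1, a gene of upper-layer neurons, Vldlr had a median of 62.1 CPM (43.7 to 68.0) and Dab1 a median of 111 (46.2 to 135). In the 3 clusters with more than 50 CPM of Syt6, a gene of layer 6 neurons, Vldlr was at 16.5 to 18.6 CPM, below all other clusters. Dab1 in these 3 clusters had a median of 67.9 CPM (60.3 to 89.7). In the remaining 14 clusters the median was 41.9 CPM for Vldlr and 38.6 CPM for Dab1, and the highest Dab1 of that group, 125 CPM, was in Exc_26, the cluster with the most Reln. Lrp8 had another order, with a median of 33.4 CPM in the remaining clusters, 23.3 in the Calb1 clusters and 20.1 in the Syt6 clusters. Its highest level was in Exc_14, at 46.4 ± 11.1 CPM (SD over libraries).

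**Figure D3:**
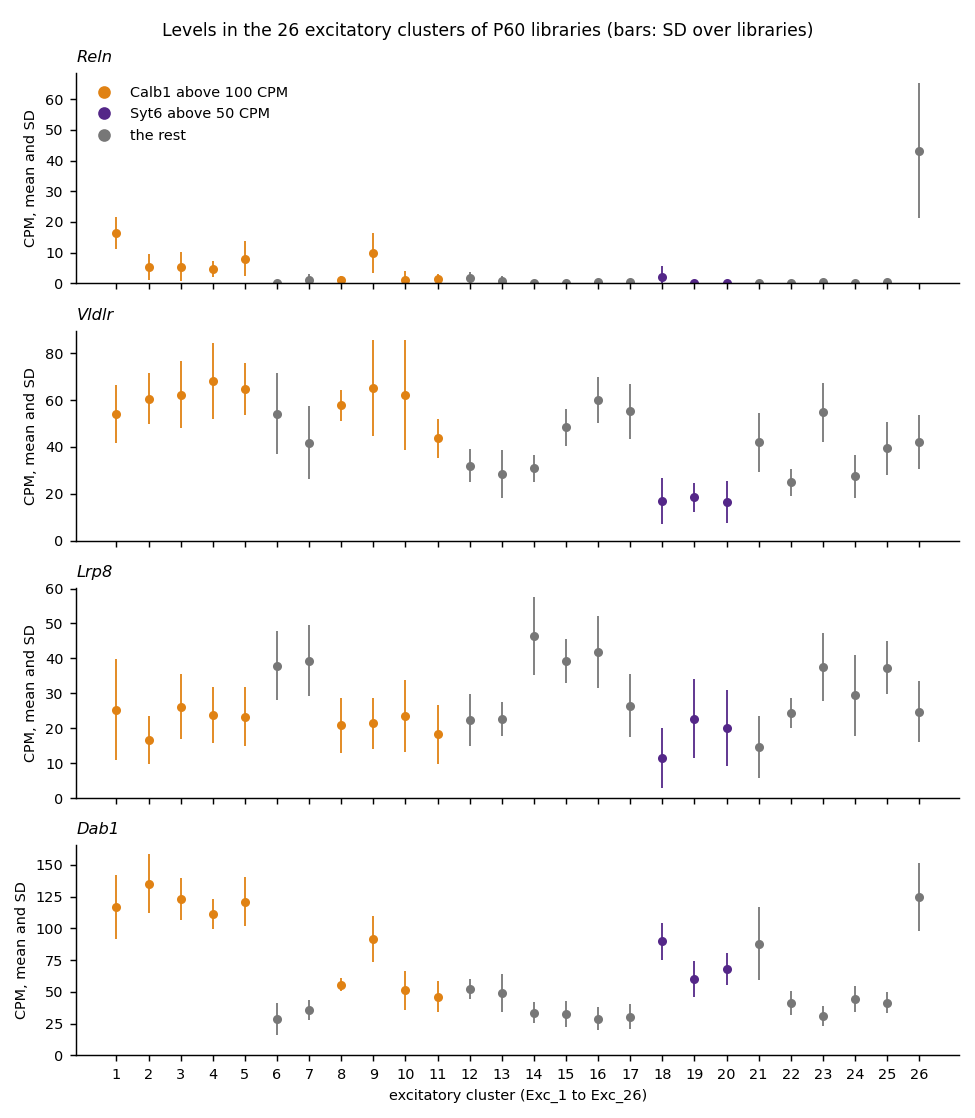
Level of Reln, Vldlr, Lrp8 and Dab1 in the 26 excitatory clusters, in CPM, as the mean and SD over the P60 libraries with at least 10 cells of the cluster, coloured by Calb1 above 100 CPM, Syt6 above 50 CPM or neither. Reln stands out in Exc_26, Vldlr is lowest in the 3 Syt6 clusters, and Dab1 is above 110 CPM in 5 Calb1 clusters and in Exc_26.

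Levels pooled over the P60 cells of each astrocyte, mature oligodendrocyte and endothelial cluster are given as a description without a test. Dab1 ran from 122 to 211 CPM over the astrocyte clusters. Over the clusters of mature oligodendrocytes Dab1 ran from 0 CPM in Oligo_8, which held 39 cells, to 72.1 in Oligo_1. Vldlr ran from 50.4 CPM in Oligo_13 to 169 in Oligo_8, with 116 in Oligo_1. Lrp8 ran from 34.0 CPM in Endo_13 to 113 in Endo_7, and Ndnf from 11.3 CPM in Endo_1 to 95.2 in Endo_8.

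The genes whose levels followed each member most closely were found by Pearson's r of log2(CPM + 1) over 39 cell types among 10825 genes, as a description without a test. The 5 closest to Reln were A530058N18Rik (r = 0.89), Pip5k1b (0.86), Pcdh8 (0.86), Dlx6 (0.83) and Dlx5 (0.83), the last 2 being transcription factors of the GABAergic lineage. Among the genes that followed Ndnf most closely were Megf6, Tmem45a, Col14a1 and Fmo1, with r from 0.76 to 0.82. The closest genes were D2Wsu81e, Fam19a5, Edil3, Mapre2 and 0610007P14Rik for Vldlr (0.81 to 0.86) and Ccdc85a, Fnbp1l, Spock2, Snrk and Nanos1 for Lrp8 (0.82 to 0.87). For Dab1 they were Slc25a23, Ndufa13, 2310016M24Rik, Slmo1 and Tmem138 (0.75 to 0.83). Among the members themselves the highest r was that of Reln with Ndnf, at 0.60, followed by Reln with Dab1 at 0.52 and Reln with Vldlr at 0.45.

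The 3 P21 libraries were compared with the 6 P60 saline libraries to ask how the pathway changed with age. UMI sums per library and class were fitted with edgeR's quasi-likelihood test over all genes, and a gene was called at an adjusted p (Benjamini-Hochberg) under 0.05 with a change above 1.5-fold. Log2 changes are P60 minus P21. In a bulk sum over a class, fewer cells with a transcript and less transcript per cell cannot be told apart. Of 35 pairs of gene and class, 19 had enough UMIs to be tested and 6 were called, beside 11.9% of all gene and class pairs. With P21 libraries 2 and 3 summed into 1 sample, 5 of these calls remained and that of Ndnf in inhibitory neurons was lost. Lrp8 and Vldlr fell with age in 1 class each and Dab1 in 1 class, while Dab1 and Ndnf rose in inhibitory neurons and Reln fell in excitatory neurons.

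Lrp8 in the endothelial class showed the clearest change. The P21 libraries had 135, 171 and 151 CPM, and the P60 saline libraries had 56.4 at the lowest, 68.8 at the median and 91.4 at the highest. All P21 libraries were above all P60 libraries, and the log2 change was −1.25 ± 0.14 (SE, adjusted p = 2.6e-05 in edgeR), which is 2.39-fold higher at P21. In this class 12.7% of all genes tested were called. Summed mural markers ranged from 2242 to 2757 CPM at P21 and from 1987 to 3651 over the 12 P60 libraries. Markers of other cells also moved in this class, with summed astrocyte markers at 127 to 159 CPM at P21 and 46.0 to 117 at P60 and Sst at 18.1 to 27.6 and 0 to 15.6, both without overlap. Summed microglial markers were 37.7 to 137 CPM at P21 and 11.1 to 56.9 at P60, with overlap. Among cells with more endothelial than mural marker UMIs the P21 libraries had 137 to 178 CPM of Lrp8 and the P60 saline libraries 61.7 to 98.4, a split chosen after the data had been seen, and the part of mural or other cells in the result was not tested. Endothelial cells supplied 38.3% of all Lrp8 UMIs at P21, where they were 19.3% of cells, and 15.8% at P60, where they were 14.4% of cells. Ndnf in the same class had 26.4 to 39.7 CPM at P21 and 27.1 to 65.2 at P60, overlapping and not called (adjusted p = 0.478).

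In mature oligodendrocytes 2 members fell with age, in a class where 17.9% of genes were called. Vldlr was at 123, 112 and 119 CPM in the P21 libraries and at 45.0 to 89.9 CPM with a median of 83.2 at P60, without overlap. Its log2 change was −0.63 ± 0.17 (SE, adjusted p = 0.0153, edgeR). Dab1 was at 48.5, 77.2 and 100 CPM at P21 and at 11 to 40.8 with a median of 19.0 at P60, again without overlap, with a log2 change of −1.46 ± 0.33 (SE, adjusted p = 0.00571, edgeR). The Vldlr call was lost without P21 library 1 and with all 12 P60 libraries, whereas the Dab1 call held with any 1 library left out. Markers of all 3 stages of the lineage were higher in this class in every P21 library than in any P60 saline library. The summed markers of mature oligodendrocytes were 14618 to 17603 CPM at P21 and 9531 to 11451 at P60 saline, those of newly formed ones 182 to 210 and 59.1 to 158, and those of precursors 369 to 411 and 146 to 350. Their part in the result, and that of a shift between the clusters of the class, which differed in both genes at P60, was not tested. Within P60, Dab1 in this class was 37.4 to 42.1 CPM in the 4 libraries of 15 days of withdrawal and 8.83 to 27.2 CPM in the other 8 libraries. The summed excitatory markers in the same cells were 309 to 544 CPM in those 4 libraries and 54.5 to 210 CPM in the other 8, with 49.8 to 149 CPM at P21, and their part was not tested either. Depth split the same libraries, with a median of 4330 to 4750 UMIs per cell in those 4 and 2690 to 3980 in the other 8. At P21 it was 4163.5 to 5732, and the part of depth was not tested. Against the 2 saline libraries of 15 days alone, the log2 change of Dab1 was −0.95 and not called (adjusted p = 0.0813, edgeR), and against the other 4 saline libraries it was −2.24 (adjusted p = 0.000135), a split chosen after the data had been seen.

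In inhibitory neurons, where 14% of genes were called, Dab1 rose with age. The P21 libraries had 93.7, 76.5 and 50.4 CPM and the P60 saline libraries 108 to 151 with a median of 126, without overlap. The log2 change was 0.74 ± 0.18 (SE, adjusted p = 0.00671, edgeR). Ndnf was at 17.1, 5.03 and 2.52 CPM at P21 and 7.43 to 28.1 with a median of 21.8 at P60, so the groups overlapped, and its log2 change of 1.32 ± 0.44 lay just under the threshold (adjusted p = 0.05 after rounding, edgeR). The Ndnf call was lost when any library other than P21 library 1 was left out, and the Dab1 call without P21 library 3 (log2 change 0.54). Reln itself was at 194, 208 and 204 CPM at P21 and 117 to 220 with a median of 158 at P60, and it was not called (log2 change −0.37 ± 0.15, adjusted p = 0.0848). The share of inhibitory neurons with a Reln UMI, thinned to 2000 UMIs per cell, was 22 to 24.1% at P21 and 12.4 to 25.3% in P60 saline libraries. The difference of means, −4.37 percentage points, had a two-sided exact permutation p of 0.143 over the 84 splits of 3 against 6 libraries. Without saline library 2 of maintenance the difference was −5.71 points with an exact permutation p of 0.0357.

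The make-up of the inhibitory class moved with these changes. Inhib_2, low in Dab1 and Ndnf, made up 35.4% of inhibitory neurons at P21 and 7.82% at P60 saline. Inhib_7, high in both, made up 7.90% and 35.7%. When the P60 saline levels of each cluster were combined in the P21 proportions, Dab1 came to 68.5 ± 8.1 CPM, against 73.5 observed at P21 and 125.8 observed at P60. Ndnf came to 7.88 CPM in the same way, against 8.23 observed at P21 and 20.6 at P60. Reln, which was not called, came to 194 CPM, against 202 observed at P21 and 160 at P60. In the opposite calculation, added after the data had been seen, the P21 levels in the P60 proportions gave 158 CPM of Dab1 and 32.5 CPM of Ndnf, above the pooled P60 levels of 124 and 22.1. The direction of the Dab1 and Ndnf changes turned when the cluster proportions were held at those of P60. That of Reln did not, with 208 CPM against a pooled P60 level of 154. The cluster names of P21 cells were assigned by the authors from correlation with the P60 clusters.

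Within Inhib_7 the Dab1 values lay in the opposite order to those of the class. In this cluster the P21 libraries had 251, 299 and 183 CPM of Dab1, and the P60 saline libraries with enough cells had 130, 165, 177 and 163, with a log2 change of −0.66 that was not called (adjusted p = 0.0694, edgeR). Reln in Inhib_7 was at 199, 310 and 244 CPM at P21 and at 86.9, 175, 132 and 158 at P60, with a log2 change of −0.77 that was not called (adjusted p = 0.0607). In Inhib_2 Reln was at 295, 349 and 340 CPM at P21, with a log2 change of 0.14 (adjusted p = 0.806). Over the inhibitory clusters 1.64% of gene and cluster pairs were called, and 0 of the 8 tested pairs with a member were, 2 of them with an unadjusted p under 0.05 in edgeR. Over all fitted excitatory and inhibitory clusters, 49875 of 179965 pairs of gene and cluster had such a p.

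In excitatory neurons, where 19.3% of genes were called, Reln was at 5.09, 5.30 and 4.06 CPM at P21 and at 2.22 to 4.25 with a median of 3.06 in P60 saline libraries. The groups overlapped, and the log2 change was −0.64 ± 0.19 (SE, adjusted p = 0.0167, edgeR). This call was lost without P21 library 2, without saline library 2 of 15 days, and with cells classed by the authors' other annotation column. It was also lost against the saline libraries of 15 days alone and against those of maintenance and 48 h alone. Transcripts of interneurons moved with it in these cells. Sst was at 19.8 to 25.3 CPM at P21 and 0.24 to 15.7 over the 12 P60 libraries, Vip at 6.82 to 8.88 and 0.37 to 2.33, Gad1 at 2.76 to 4.60 and 0.12 to 2.31 and Gad2 at 3.12 to 4.5 and 0 to 1.6, each without overlap. Summed endothelial markers were also higher, at 56.4 to 86.0 CPM at P21 and 12.7 to 21.2 at P60. In the endothelial class, which should lack the transcript, Reln was at 0.42 to 3.25 CPM at P21 and 0 to 1.595 in P60 saline libraries. Its highest P60 value there, 3.34 CPM, was in a cocaine library. Astrocytes had 0 to 8.73 CPM of Reln at P21 and 0 to 5.03 at P60 saline, with means of 5.25 and 1.81. In mature oligodendrocytes mean Reln was 1.17 CPM at P21, from 7 UMIs in P21 library 1, and 0 at P60 saline. In microglia it was 0 at P21 and 1.32 at P60 saline, from 2 UMIs. In newly formed oligodendrocytes it was 0 at P21 and 3.4 at P60 saline, from 1 UMI. These counts are too low to give a direction. The part of transcripts from other cells in the Reln change was not tested. With P60 cluster levels in P21 proportions Reln came to 3.99 CPM, between the 4.82 observed at P21 and the 3.04 observed at P60. In the opposite calculation, P21 levels in P60 proportions gave 3.68 CPM, against a pooled P60 saline level of 2.99. Within Exc_26 alone Reln was not called (log2 change −0.39, adjusted p = 0.609). Dab1 was at 70.9 to 73.5 CPM at P21 and 56.0 to 65.8 at P60, without overlap, but its log2 change of −0.18 was not called (adjusted p = 0.121). Vldlr and Lrp8 overlapped between the ages in this class. Over 73 tested pairs of member and excitatory cluster, 2 were called, against 11.3% of all gene and cluster pairs. Both were Vldlr, in Exc_22 (37.3 to 45.8 CPM at P21 and 22.6 to 29.9 at P60, log2 change −0.75, adjusted p = 0.0191) and Exc_24 (log2 change −0.79, adjusted p = 0.0234). The Exc_22 call was lost without P21 library 1 or 3, and the Exc_24 call without P21 library 3, saline library 1 of 15 days or saline library 2 of 48 h.

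In astrocytes and in newly formed oligodendrocytes, where 1.11% and 1.96% of genes were called, no member was called. With cells classed by the authors' other annotation column Vldlr in astrocytes was called. Dab1 in astrocytes was at 161 to 233 CPM at P21 and 128 to 175 at P60 (log2 change −0.38, adjusted p = 0.435). Vldlr in newly formed oligodendrocytes was at 144 to 189 CPM at P21 and 128 to 272 at P60 (log2 change 0.02, adjusted p = 0.996). No member had enough UMIs for a test in microglia.

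**Figure D4:**
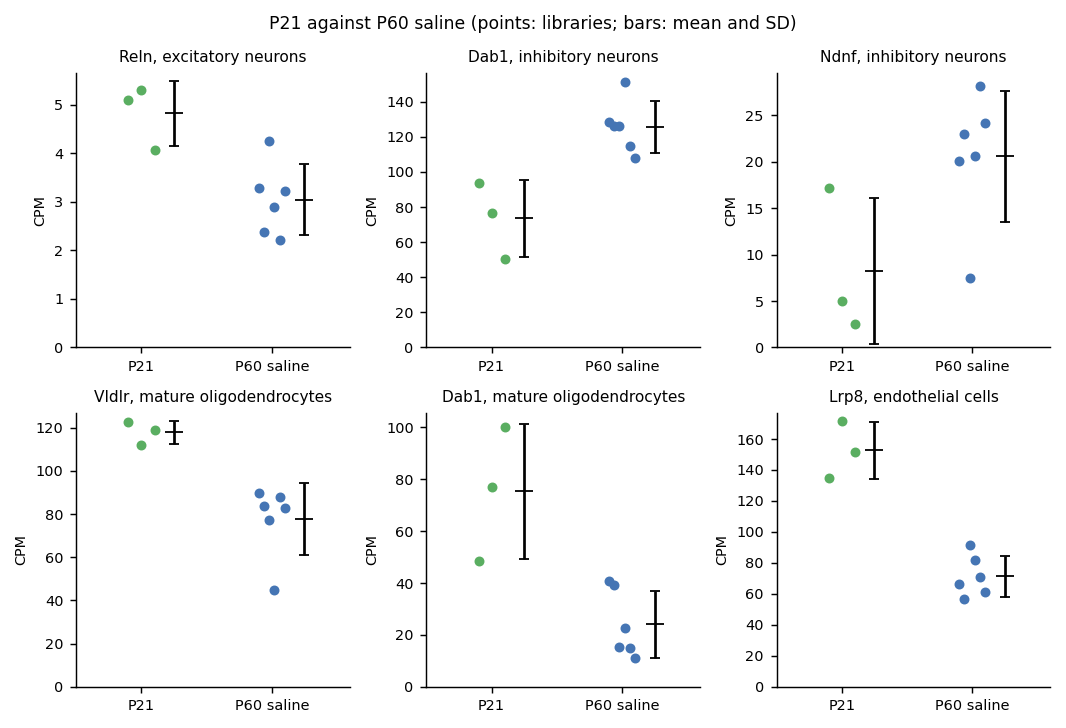
Levels in CPM of the 6 called pairs of gene and class, with 1 point per library for the 3 P21 (green) and 6 P60 saline (blue) libraries and the mean and SD beside them. Lrp8 in the endothelial class and both Vldlr and Dab1 in mature oligodendrocytes lie lower in every P60 library than in any P21 library, Dab1 in inhibitory neurons lies higher, and Reln and Ndnf overlap.

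The wider pathway was followed with a list of 49 genes. In excitatory neurons 48 were tested, 11 fell and 2 rose with age, which is 27.1% of those tested beside the 19.3% of all genes, and the list's median log2 change was −0.21 beside −0.005 for all genes. Of the 5 protease genes tested, Adamts4 (log2 change −1.62), Adamts2 (−1.42) and Adamts3 (−1.18) fell, whereas Plat and Adamts5 were not called. Adamts3 went from 8.48 to 9.12 CPM at P21 to 2.30 to 4.92 at P60, whereas Adamts4 and Adamts2 were below 3 CPM in every library. Also lower were Rap1b, a small GTPase downstream of Dab1 (42.4 to 46.6 CPM at P21 and 19.2 to 23.3 at P60, log2 change −0.98), and Itgb1, an integrin subunit (−0.96). Mature oligodendrocytes had far more Adamts4, at 176 to 239 CPM at P21 and 66.2 to 120 at P60 saline. They also had more Itgb1, at 87.5 to 122 and 50.2 to 90.1 CPM, against 13.2 to 14.6 and 6.04 to 7.29 in excitatory neurons. The part of transcripts from other cells in the changes of the list in excitatory neurons was not tested. Pafah1b3, a partner of the Lis1 protein, rose by 0.74 on the log2 scale. Only the Adamts2 call among these was lost with a library left out, P21 library 1.

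In mature oligodendrocytes 24 genes of the list were tested, 7 fell and 2 rose, or 37.5% beside 17.9% of all genes. The protease genes Plat and Adamts4 fell by 1.38 and 1.20 on the log2 scale, and Rap1b and Rap1a by 1.31 and 1.20. Mapt, encoding tau, rose by 0.88 and Rnf7, a part of the ligase that degrades Dab1, by 0.62. In the endothelial class 39 were tested, 4 fell and 1 rose, or 12.8% beside 12.7% of all genes, and those that fell included the kinases Src (−0.99) and Fyn (−0.74) and the cadherin Cdh2 (−1.01). In inhibitory neurons 36 were tested and only Pafah1b1, which encodes Lis1 (−0.85), and Rap1b (−0.83) were called, or 5.56% beside 14% of all genes. None was called in astrocytes, newly formed oligodendrocytes or microglia, the last with 0.727% of all genes called. Among the calls named, those that leaving out a single library ended were Src (P21 library 1 or 2) in the endothelial class, Rnf7 (P21 library 1) and Rap1b (P21 library 3) in mature oligodendrocytes, and Rap1b in inhibitory neurons (P21 library 2 or 3, saline library 1 of 15 days or saline library 2 of 48 h). The list was compiled with earlier results of these data known, and its counts are a description.

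Cocaine was compared with saline within each period, with 2 libraries per group. In edgeR none of the 20 tested pairs of member and class was called at the end of maintenance, where 0.00993% of all gene and class pairs were called, after 48 h, where 0.00827% were, or after 15 days, where 0.339% were. At an unadjusted p under 0.05 there were 2, 1 and 0 pairs. Of all genes tested in excitatory neurons, 871, 651 and 903 of 13160 had such a p. In inhibitory neurons it was 355, 420 and 530 of 8679. Over the 3 periods together 0 pairs were called (0.00496% of all pairs) and 2 had an unadjusted p under 0.05, and for a difference between periods 0 were called (0.00993%) and 0 had such a p. Over the 3 periods 1123 of 13160 genes in excitatory neurons and 451 of 8679 in inhibitory neurons had such a p. DESeq2 also called 0. In single clusters 0 of 42, 61 and 83 tested pairs were called at maintenance, 48 h and 15 days, where 0.00647%, 0.00555% and 1.21% of all pairs were called. At an unadjusted p under 0.05 there were 0, 7 and 2 of them. Such a p was found for 6011 of 108127, 7122 of 144269 and 13585 of 199140 pairs of any gene and cluster. The lowest p of the member pairs was that of Dab1 in Exc_9 after 48 h, with 134 and 104 CPM in the saline libraries and 70.9 and 59.3 in the cocaine libraries (log2 change −0.85 ± 0.27, SE, adjusted p = 0.998, edgeR).

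Among the pairs of member and class, the lowest p was that of Ndnf in inhibitory neurons after 48 h. The saline libraries had 24.2 and 28.1 CPM and the cocaine libraries 7.08 and 11.5, with a log2 change of −1.27 ± 0.46 (SE, adjusted p = 0.869, edgeR). The cocaine values rest on 2 UMIs in 31 cells and 12 UMIs in 152 cells. Of these cells 1 and 58 were of Inhib_3, against 1 of 109 and 4 of 59 with saline, and the part of this was not tested. Within Inhib_7 alone the log2 change was −1.18 ± 0.59 (SE, adjusted p = 0.95, edgeR). At 15 days the same gene had 20.1 and 23 CPM with saline and 18.5 and 25.9 with cocaine, a log2 change of 0.03 ± 0.31. Reln in excitatory neurons at maintenance had 2.90 and 4.25 CPM with saline and 1.5 and 2.37 with cocaine (log2 change −0.86 ± 0.38, adjusted p = 0.734). After 48 h it had 2.22 and 3.22 CPM with saline and 3.12 and 4.36 with cocaine, in the opposite direction. Vldlr in mature oligodendrocytes at maintenance had 45.0 and 77.4 CPM with saline and 95.4 and 119 with cocaine (log2 change 0.63 ± 0.29, unadjusted p = 0.0345).

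The precision differed widely between genes and classes. Over the 3 periods the log2 changes of the 20 tested pairs ran from −0.71 to 0.96. In excitatory neurons over the 3 periods, the log2 change of cocaine against saline was −0.03 ± 0.07 for Vldlr, 0.05 ± 0.09 for Lrp8, 0.03 ± 0.06 for Dab1 and −0.18 ± 0.18 for Reln. In inhibitory neurons it was −0.16 ± 0.17 for Reln and −0.14 ± 0.14 for Dab1, and for Lrp8 in endothelial cells it was 0.10 ± 0.11. A missed threshold does not show that cocaine and saline were alike.

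**Figure D5:**
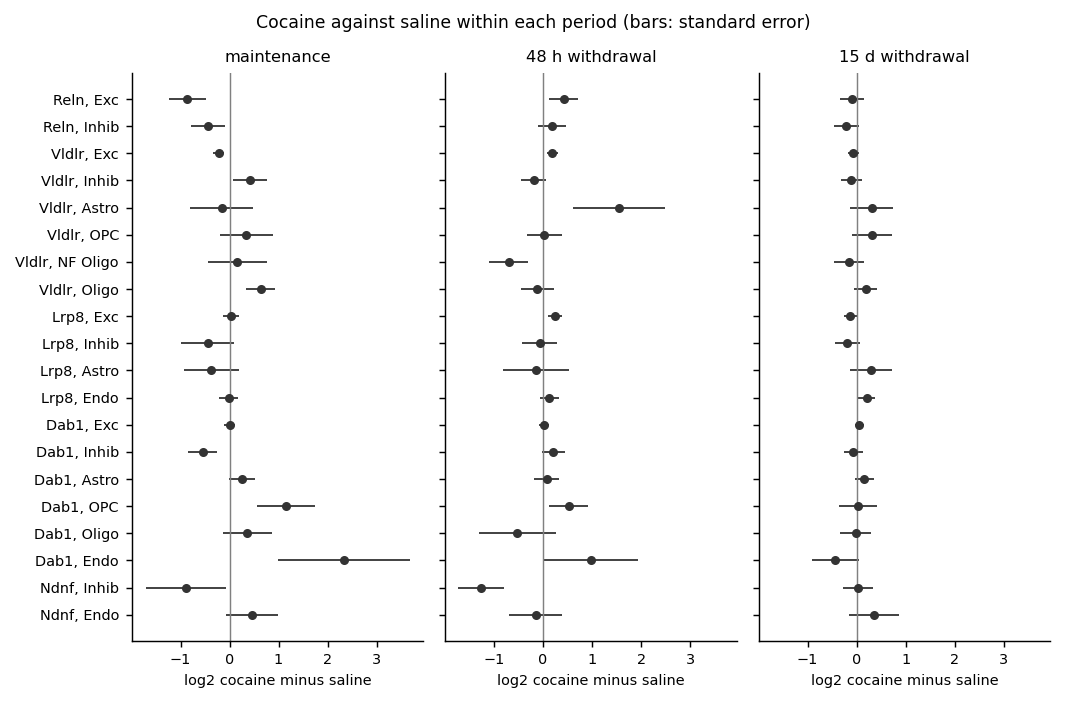
Log2 change of cocaine against saline, with its standard error, for the 20 tested pairs of gene and class at the end of maintenance, after 48 h and after 15 days of withdrawal, with a grey line at no change. Estimates lie between −0.88 and 2.34 at maintenance, between −1.27 and 1.54 after 48 h and between −0.43 and 0.36 after 15 days, and none was called.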

How the data were processed

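The deposited files hold raw UMI counts per gene and cell, made by the authors with Cell Ranger (mm9, NCBIM37) from 10x 3′ libraries, and a table of the retained cells with their library, class and cluster. The authors' notes list Seurat 2.1.0. P21 cells were named by the authors by correlation with P60 clusters. The authors took out cells with very many detected genes as presumed doublets and reviewed doublets by hand after clustering, and no doublet caller was run here.

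Counts were summed per library and cell type wherever at least 10 cells were present, leaving out 13 mitochondrial and 154 ribosomal protein genes (25978 genes remained). CPM is per 1000000 of the remaining UMIs. Sums were tested with edgeR 4.0.16 in R 4.3.3 (filterByExpr, TMM scaling, quasi-likelihood F test, Benjamini-Hochberg over all genes tested in a type), called at an adjusted p under 0.05 and a change above 1.5-fold. DESeq2 1.42.0 was the alternative tool. SE is the log2 change divided by the square root of F. The tests were run on counts simulated for independent libraries, so libraries that share animals were not covered. Of 100 genes changed 2-fold, 81 were recovered in excitatory neurons. In inhibitory neurons, mature oligodendrocytes and endothelial cells it was 48 to 62. Of 100 genes changed 4-fold, 82 to 97 were recovered. Unchanged genes made up from 5 of 148 to 17 of 164 calls. Age was tested with P21 against P60 saline libraries, cocaine within each period. Oligodendrocyte precursors had no age test, as 1 P21 library had enough cells. The saline library 2 of maintenance (P60_3) had under 10 astrocytes, precursors and newly formed oligodendrocytes and entered no sum of these classes. Shares of cells with a UMI were computed after thinning each cell to 2000 UMIs.

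The members and gene lists were chosen with earlier results of these data known. The named genes were the 5 members, the called pathway genes with the largest changes whose libraries did not overlap (at most 5 in each direction), and the 5 genes most like each member, of which some are not reported here. Leading marker genes of clusters, and the excitatory groups by Calb1 and Syt6, were chosen after their values were seen. The alternatives are another scaling, filter, tool, sample choice and cell annotation, and each library left out. Intervals cover counting error only.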

Additional observations from a re-analysis of the deposited data

Results flagged for a closer look

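Vldlr in newly formed oligodendrocytes was 272.1 CPM in saline library 1 of 48 h, far from the other saline libraries with enough of these cells, the next of which had 163 CPM. Vldlr in mature oligodendrocytes was 45.0 CPM in saline library 2 of maintenance, against 77.4 CPM or more in the other saline libraries. These are 2 of 19 groups of libraries examined, of which chance alone would single out about 1 in 20.

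Dab1 moved in opposite directions with age in 2 cell classes. It was higher at P60 in inhibitory neurons, by 0.74 on the log2 scale, and lower in mature oligodendrocytes, with a log2 change of −1.46. Every P60 saline library lay above every P21 library in the first class and below it in the second, and the difference between the classes was not tested. The direction in inhibitory neurons turned when the cluster proportions were held at those of P60.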

How the results depend on the processing

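Of the 6 age calls in cell classes, those of Lrp8 in the endothelial class and of Dab1 in mature oligodendrocytes held with each library left out, with DESeq2 and with every other planned setting run on them. With a library left out, 4 to 5 of the 6 were called. The other annotation column lost Reln in excitatory neurons and gained Vldlr in astrocytes, and no filter on low counts gained Reln in mature oligodendrocytes, for 7 calls. Against the saline libraries of 15 days alone, a setting chosen after the data had been seen with only 2 adult libraries, 1 of the 6 remained, Lrp8. Against the other saline libraries 4 were called, and those of Ndnf in inhibitory neurons and Reln in excitatory neurons were lost. The cluster calls numbered 2, with 0 to 3 when a library was left out, and 5 with no filter on low counts. In the pathway list in excitatory neurons 13 genes were called, with 10 to 14 when a library was left out and 25 with no fold threshold. The difference in the share of inhibitory neurons with a Reln UMI ranged from −5.71 to −3.12 percentage points with a library left out, and passed the threshold without saline library 2 of maintenance. With P21 cluster levels in the P60 proportions, chosen after the data had been seen, the log2 change in inhibitory neurons reversed to −0.35 for Dab1 and −0.56 for Ndnf, and the cause was not tested. Member calls for cocaine were 0 under every setting run. The level of each gene in the class where it was highest moved by less than 1 SD under each alternative, and levels in other classes were not recomputed.

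No paired analysis was possible because the replicate numbers follow accession order and nothing in the labels pairs libraries across groups. P-values measure the spread between libraries, which at P60 were pools of 2 mice. The P21 libraries were made from fewer mice than separate pools of 2 would need. Whether they share animals is not known, so p-values of the age tests cannot be read as resting on independent pools at P21. With 2 libraries per group, and few inhibitory neurons in some libraries, changes in Ndnf and in Reln of excitatory neurons were measured with large errors. Too few member UMIs were counted in microglia for an age test, and 1 P21 library held at least 10 oligodendrocyte precursors.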

Other observations

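The inhibitory neurons that supplied the Reln transcripts differed between the ages when counted by marker and not by cluster. At P60, cells with an Ndnf UMI were 8.65% of inhibitory neurons and carried 32.2% of the inhibitory Reln UMIs, at 484 CPM. Cells with at least 5 UMIs of Sst were 14.4% of inhibitory neurons and carried 28.5%. At P21, cells with an Ndnf UMI were 3.22% of inhibitory neurons and carried 10.6% of the Reln UMIs, whereas cells with at least 5 Sst UMIs were 41.9% of inhibitory neurons and carried 65.9%. A cell can count under both markers, both thresholds depend on the depth of a cell, and the difference between the ages was not tested.

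Reln per cell reached 18 UMIs in an inhibitory neuron at P60 and 14 at P21, and 7 and 9 UMIs in an excitatory neuron. At least 10 Reln UMIs were found in 15 inhibitory neurons at P60 and in 18 at P21, and in 0 excitatory neurons at either age.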
